A study of Homo sapiens with 23 samples.

Results

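RNA from 10 genes of the TGF-beta and BMP pathway was followed across 5 HCT116 lines that differ in their *AGO* genes. The genes are the receptors *TGFBR1*, *TGFBR2*, *ACVR1B*, *ACVR2A*, *BMPR1A* and *BMPR2* and the signal carriers *SMAD2*, *SMAD4*, *SMAD5* and *SMAD7*. They were chosen as a list of symbols, with earlier results of these data known, and matched by Ensembl identifier. All 10 of them were found among the 57875 genes listed and were among the 22842 genes that passed the filter on low counts. HCT116 is a human colorectal carcinoma cell line. The study sequenced ribosomal RNA-depleted total RNA from 3 biological replicates of each line, 15 samples in all. Beside wild-type cells these are single knockouts of *AGO1* or of *AGO2*, the *AGO1/2* line (the double knockout) and the *AGO1/2/3* line (the triple knockout). Argonaute (AGO) proteins carry microRNAs (miRNAs) to matching sites in mRNA, and the question behind these lines is how steady-state RNA changes when *AGO* genes are removed alone or together. The knockout lines were made from HCT116 cells by CRISPR editing, *AGO4* was not targeted in any of them, and no treatment was applied. Since 1 line stands for each genotype, genotype and line cannot be told apart.

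A sample held 27709971 to 45271146 counts in total, and the *AGO2* knockout samples, with 40419152 to 45271146, were the deepest as a group. Levels are given as CPM, counts relative to the library total after scaling by edgeR's TMM method. Each difference was tested with the quasi-likelihood test of edgeR, with Benjamini-Hochberg adjustment of p over all genes tested. A gene was called at an adjusted p at or under 0.05. *AGO1* RNA was lower in the 3 lines labelled as lacking it (log2 fold change -1.89 in the single, -1.84 in the double and -2.01 in the triple knockout). *AGO2* RNA gave no such check of the labels. It was lower in the *AGO2* knockout line (-0.51), was not called in the *AGO1/2* line (-0.26) and was higher in the *AGO1/2/3* line (0.40). *AGO3* RNA was lower in the *AGO1/2/3* line (-1.12), where *AGO4* RNA was higher (1.29). The lines are called by their labels below. Of 8 markers of colorectal epithelium, 7 reached a mean of 1 CPM and *VIL1* was near 0. Their summed level was 1818 to 2049 CPM in wild-type cells, 1374 to 1517 in *AGO1*, 1714 to 1913 in *AGO2*, 2246 to 2715 in *AGO1/2* and 1728 to 2215 in *AGO1/2/3* knockout cells. The keratins *KRT8*, *KRT18* and *KRT19* make up most of that sum, and other members moved differently. *CDH1*, E-cadherin, had 74.6 to 134 CPM in wild-type, 31.6 to 60.0 in *AGO1* and 57.8 to 80.8 in *AGO2* knockout cells. It had 27.1 to 36.2 CPM in the double and 7.76 to 9.21 in the triple knockout. In the same order *EPCAM*, a surface antigen of epithelia, had 205 to 222, 159 to 174, 258 to 282, 102 to 130 and 61.9 to 64.8 CPM. *CLDN4*, another of the 8 markers, had 96.2 to 122, 39.8 to 71.1, 78.4 to 110, 71.3 to 94.6 and 89.0 to 92.8 CPM. The summed level of 6 leukocyte markers was 2.54 to 5.85 CPM in wild-type, 11.0 to 15.0 in *AGO1/2* and 9.39 to 10.9 in *AGO1/2/3* knockout cells. In the triple knockout *LYZ*, lysozyme, had 6.69 to 8.13 CPM against 0.0603 to 0.159 in wild type, while *PTPRC*, the common leukocyte antigen, had 0.868 to 1.12 against 0.874 to 1.02 and *CD68* 1.23 to 1.71 against 1.28 to 4.70. In the double knockout *CD68* made up most of the sum, with 7.22 to 9.76 CPM. There *LYZ* had 2.08 to 3.93 and *PTPRC* 1.07 to 1.28 CPM. The part of these marker differences in the results below was not tested.

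Ligands of this family bind pairs of receptor kinases at the cell surface. A type II receptor (TGFBR2 for TGF-beta, ACVR2A for activins and BMPs, BMPR2 for BMPs) phosphorylates a type I receptor (TGFBR1, ACVR1B or BMPR1A), which phosphorylates a receptor-regulated SMAD. SMAD2 carries the TGF-beta and activin signal and SMAD5 the BMP signal, SMAD4 is the partner that both need, and SMAD7 is an inhibitor that blocks the receptors and recruits ubiquitin ligases to them. In the intestine the pathway restrains epithelial growth, and in colorectal tumours with faulty mismatch repair, HCT116 among them, its receptor genes often carry frameshifts in runs of adenines.

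The coding sequence of *TGFBR2* holds such a run, which is shown because HCT116 is known to be mutant there. It has 10 adenines in exon 3, starting in codon 125, at chr3:30650372-30650397 of GRCh38 on the plus strand. The reference sequence is printed with the run in capitals, and the allele of the cells was not read here.
TGFBR2 run: tatgaaggAAAAAAAAAAgcctggtg
A run of at least 10 adenines was found in 0.324% of the coding sequences of 14830 tested genes. *ACVR2A* has 2 runs of 8, a length reached in 4.59% of coding sequences, and the longest runs of the other 8 genes have 4 to 7. Gene-level counts of RNA do not separate mutant from intact transcripts.

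Many of these genes are known miRNA targets, so the 3′-UTRs of their canonical GENCODE v44 transcripts were searched on the sense strand for matches to the seeds (bases 2 to 8) of 18 miRNAs. Mature sequences come from RefSeq (GRCh38.p14) and 18 of the 19 miRNAs listed were found there, hsa-miR-130a-3p not being among them. The 5 genes whose RNA moved most hold 46 matches, 12 of them followed by an A opposite base 1 of the miRNA. Printed as examples are 6 of these 12, at least 1 for each gene. Capitals mark the seed in the miRNA and its reverse complement in the site, and each site ends 1 base beyond the match.
hsa-let-7a-5p: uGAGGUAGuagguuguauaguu
TGFBR1 site for let-7a: gaggtcaattgttCTACCTCa
hsa-miR-17-5p: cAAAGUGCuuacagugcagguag
TGFBR2 site for miR-17: gccaataacatttGCACTTTa
hsa-miR-21-5p: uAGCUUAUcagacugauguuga
BMPR2 site for miR-21: ggacaggagaaacATAAGCTa
SMAD7 site for miR-21: tttagactttaacATAAGCTa
hsa-miR-15a-5p: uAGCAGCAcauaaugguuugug
SMAD7 site for miR-15a: cttcaaactacttTGCTGCTa
hsa-miR-27a-3p: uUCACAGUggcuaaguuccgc
ACVR2A site for miR-27a: ctgtcaggagctcACTGTGAa
On GRCh38 the *TGFBR1* site lies at chr9:99149367-99149387, the *TGFBR2* site at chr3:30691854-30691874, the *BMPR2* site at chr2:202567243-202567263 and the *ACVR2A* site at chr2:147928943-147928963, all on the plus strand. The *SMAD7* sites lie on the minus strand, at chr18:48920243-48920263 for miR-21 and chr18:48921310-48921330 for miR-15a. Every site printed is in the 3′-UTR.

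These motifs are common. Among the 3′-UTRs of 14759 tested genes, CTACCTC occurs in 11.2%, GCACTTT in 24.8%, ATAAGCT in 9.65%, TGCTGCT in 24.2% and ACTGTGA in 17.5%. The *SMAD7* 3′-UTR, 1519 bases long, holds matches to 5 of the 18 seeds, where the median of 1994 3′-UTRs within 20% of that length is 2 and 11.4% of them hold as many. The *TGFBR2* 3′-UTR holds matches to 6 against a median of 4 for its length, *BMPR2* to 10 against 9, *TGFBR1* to 7 against 7 and *ACVR2A* to 5 against 5. Whether these counts go with the changes in RNA was not tested. A match is a description of letters, and miRNA levels and AGO binding were not analysed here.

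In wild-type cells the level per kilobase of canonical transcript was 16.6 CPM for *SMAD5*, 13.0 for *TGFBR2*, 12.0 for *SMAD4*, 9.58 for *TGFBR1*, 9.22 for *BMPR1A*, 7.20 for *ACVR1B*, 5.53 for *SMAD2*, 4.86 for *BMPR2*, 3.52 for *ACVR2A* and 0.706 for *SMAD7*. RNA of the TGF-beta receptors and of the SMADs of both branches was thus present before any *AGO* gene was removed. RNA of the inhibitor *SMAD7* was the lowest of the 10. The canonical *SMAD2* transcript is 34626 bases long, which lowers its value on this scale.

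*SMAD7* (ENSG00000101665, chr18:48919853-48950965), the inhibitory SMAD, changed most. It had 2.38, 2.61 and 2.08 CPM in the wild-type replicates, from 69 to 82 counts a sample. It had 1.81, 1.72 and 3.70 CPM in *AGO1* knockout cells and 2.33, 2.43 and 2.56 CPM in *AGO2* knockout cells. Both single knockouts thus overlapped wild type. In *AGO1/2* knockout cells it had 9.90, 5.21 and 5.27 CPM. In *AGO1/2/3* knockout cells it had 29.1, 31.2 and 34.4 CPM, from 889 to 1141 counts a sample. The double knockout lay above every wild-type sample and the triple knockout above every double knockout sample. Against wild type the log2 fold change was 1.53 in the double (standard error, SE, 0.27, adjusted p = 0.00128) and 3.74 in the triple knockout (SE 0.28, adjusted p = 7.82e-08), which is 13.4-fold. Between the triple and the double knockout the difference was 2.21 (SE 0.25, adjusted p = 1.87e-05). Replicate 1 of the *AGO1/2* line was the high one, and without it the log2 fold change in that line was 1.13 (adjusted p = 0.00662).

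*TGFBR1* (ENSG00000106799, chr9:99104038-99154192), the type I receptor for TGF-beta, had 57.5, 58.5 and 70.5 CPM in wild-type cells, 62.4, 74.6 and 65.6 in *AGO1* and 81.6, 68.7 and 76.1 in *AGO2* knockout cells. It had 86.3, 95.7 and 91.0 CPM in the double and 183.7, 186.9 and 189.5 CPM in the triple knockout. The double and triple knockout replicates lay above all wild-type replicates, and those of the single knockouts overlapped them. Its log2 fold change was 0.55 (SE 0.10, adjusted p = 0.0019) in the double and 1.59 (SE 0.11, adjusted p = 2.47e-08) in the triple knockout. The triple knockout exceeded the double by 1.04 (SE 0.10, adjusted p = 5.33e-06).

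*TGFBR2* (ENSG00000163513, chr3:30606601-30694142), the type II receptor for TGF-beta, had 62.4, 55.2 and 58.4 CPM in wild-type cells, 55.4, 66.9 and 82.7 in *AGO1* and 48.5, 55.7 and 48.9 in *AGO2* knockout cells. It had 83.6, 99.7 and 94.7 CPM in the double and 136.9, 142.8 and 143.5 CPM in the triple knockout. As for *TGFBR1*, both lines that lack AGO1 together with AGO2 stood above wild type without overlap. *TGFBR2* rose by a log2 fold change of 0.66 (SE 0.13, adjusted p = 0.00204) in the double and 1.27 (SE 0.13, adjusted p = 1.54e-06) in the triple knockout, with a difference of 0.61 (SE 0.13, adjusted p = 0.00258) between these lines. Whether the RNA gained makes receptor protein was not measured here.

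*BMPR2* (ENSG00000204217, chr2:202376327-202567751), the type II receptor for BMPs, had 51.7, 60.8 and 63.5 CPM in wild-type cells, 51.6, 51.4 and 68.0 in *AGO1* and 56.6, 42.5 and 54.7 in *AGO2* knockout cells. It had 71.5, 99.8 and 89.9 CPM in the double and 146.9, 149.6 and 139.7 CPM in the triple knockout. The steps were again upward in the double and in the triple knockout. Its log2 fold change was 0.57 (SE 0.15, adjusted p = 0.0145) in the double and 1.31 (SE 0.15, adjusted p = 5.34e-06) in the triple knockout, and the lines differed by 0.74 (SE 0.15, adjusted p = 0.00197). The call in *AGO1/2* knockout cells was lost without wild-type replicate 1 (0.48, adjusted p = 0.0696), without *AGO1/2* replicate 2 (0.45, adjusted p = 0.0839) and in a fit of these 6 samples alone (0.55, adjusted p = 0.0537).

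*ACVR2A* (ENSG00000121989, chr2:147844517-147930826), a type II receptor for activins and BMPs, went the other way. It had 17.4, 17.9 and 19.7 CPM in wild-type cells, 17.4, 16.7 and 16.4 in *AGO1* and 21.9, 19.6 and 19.8 in *AGO2* knockout cells. In *AGO1/2* knockout cells it had 5.93, 6.90 and 7.04 CPM, and in *AGO1/2/3* knockout cells 11.6, 12.3 and 10.9 CPM. The double knockout was the lowest line and the triple knockout lay between it and wild type, with no overlap between any of these 3 lines. On the log2 scale the change was -1.47 (SE 0.10, adjusted p = 2.39e-07) in the double knockout, where wild type was 2.78-fold higher, and -0.66 (SE 0.10, adjusted p = 7.7e-05) in the triple knockout. From the double to the triple knockout the level was higher by 0.81 (SE 0.10, adjusted p = 4.56e-05). *ORC4*, a subunit of the origin recognition complex that overlaps *ACVR2A* on the opposite strand, had a mean of 67.0 CPM and log2 fold changes of -0.04 in both lines. The libraries were stranded, the strand setting of the quantification is not given in the sources used here, and a part of *ORC4* reads in the *ACVR2A* values was not tested.

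The other 5 genes moved less. *SMAD2*, the TGF-beta branch SMAD, had 184.7 to 201.2 CPM in wild-type cells and 271 to 283 in *AGO1/2/3* knockout cells (log2 fold change 0.54, SE 0.08, adjusted p = 0.000109). *BMPR1A*, a type I receptor for BMPs, had 51.6 to 63.5 and 79.7 to 86.0 CPM in these lines (0.49, SE 0.10, adjusted p = 0.00141). *SMAD5*, the BMP branch SMAD, had 113 to 119.5 and 141 to 146 CPM (0.31, SE 0.08, adjusted p = 0.00516). All 3 were called higher in the triple knockout and none of them in the double knockout, where their log2 fold changes were 0.13, 0.17 and -0.03 (adjusted p = 0.356, 0.311 and 0.853). *ACVR1B*, the type I receptor for activins, had 28.2 to 36.4 CPM in wild-type and 38.8 to 46.3 in *AGO1/2/3* knockout cells (0.40, SE 0.10, adjusted p = 0.0056). In *AGO1/2* knockout cells *ACVR1B* had 38.4 to 42.1 CPM and fell just outside the threshold (0.31, SE 0.10, adjusted p = 0.0536). It was called there by DESeq2's Wald test (0.29, adjusted p = 0.0348) and by edgeR without wild-type replicate 3 (0.37, adjusted p = 0.0255). *SMAD4*, the shared partner, was the gene of the 10 not called in the triple knockout, with 95.9 to 117 CPM in wild-type cells and 118 to 129 in *AGO1/2/3* knockout cells (0.23, 95% confidence interval 0.00 to 0.46, adjusted p = 0.101). It was called there without wild-type replicate 2 (0.29, adjusted p = 0.043). The *SMAD5* call in the triple knockout was lost with scaling by total counts alone (0.17, adjusted p = 0.0919), with no filter on low counts (0.28, adjusted p = 0.0786) and in a fit of 6 samples (0.26, adjusted p = 0.0541), and the *ACVR1B* call in a fit of 6 samples (0.35, adjusted p = 0.0622).

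**Figure D1:**
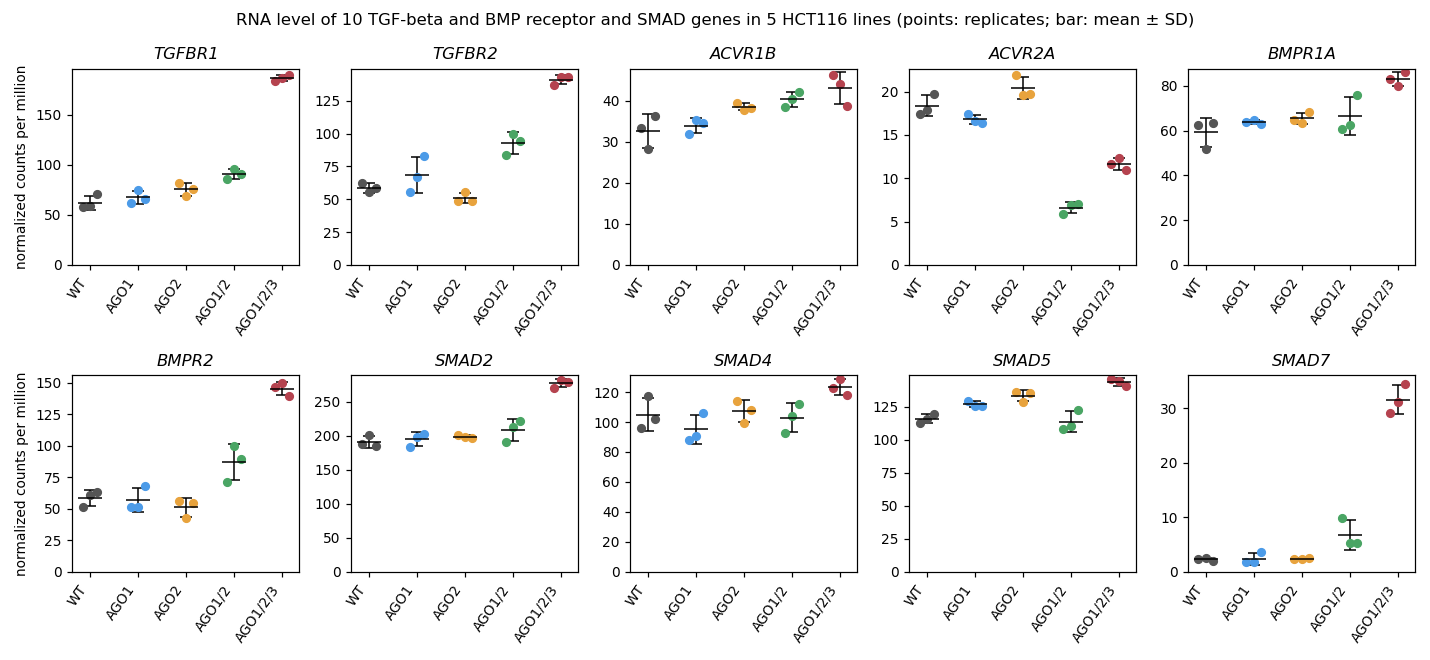
The level of each of the 10 genes in CPM (vertical axis, starting at 0) in the 5 lines (horizontal axis), with a point for each replicate and a bar for the mean ± SD of 3. *SMAD7*, *TGFBR1*, *TGFBR2* and *BMPR2* step up in the *AGO1/2* and again in the *AGO1/2/3* line, *ACVR2A* drops to 5.93 to 7.04 CPM in the *AGO1/2* line, and *SMAD4* stays between 88.3 and 129 CPM in all lines.

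Taking the lines in turn, 0 of the 10 genes were called in *AGO1* knockout cells and 0 in *AGO2* knockout cells, where 8.68% and 19.3% of all tested genes were called by edgeR. At an unadjusted p under 0.05 the counts were 0 and 3, and the share of all tested genes at that threshold was not taken. DESeq2's Wald test called 0 and 2 of the 10 genes, beside 2244 and 4913 of all 22488 genes it adjusted for. The 2 genes DESeq2 called in *AGO2* knockout cells were *TGFBR1* (log2 fold change 0.30, adjusted p = 0.0308) and *SMAD5* (0.22, adjusted p = 0.00601). The edgeR estimates for the same genes were 0.28 (adjusted p = 0.0692) and 0.20 (adjusted p = 0.0826), and edgeR called *TGFBR1* there once wild-type replicate 3 was left out (0.35, adjusted p = 0.0353). Log2 fold changes of the 10 genes ran from -0.14 to 0.22 in *AGO1* and from -0.20 to 0.28 in *AGO2* knockout cells. The widest 95% confidence interval was that of *SMAD7*, -0.59 to 0.65 in *AGO1* knockout cells, where its estimate was 0.03 and became -0.40 without *AGO1* replicate 3. The *AGO2* knockout libraries were quantified in another Salmon mode, by the headers of their files, so that mode and genotype cannot be told apart there.

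In *AGO1/2* knockout cells 5 of the 10 genes were called, 4 higher (*TGFBR1*, *TGFBR2*, *BMPR2*, *SMAD7*) and 1 lower (*ACVR2A*), where 16.7% of all tested genes were called (8.37% higher and 8.35% lower). In *AGO1/2/3* knockout cells 9 were called, 8 higher and 1 lower, where 40.1% of all tested genes were called (20.3% higher and 19.8% lower). The median log2 fold change of the 10 genes was 0.24 in the double and 0.51 in the triple knockout, beside 0.01 and -0.01 over all tested genes. The 3 triple knockout replicates of every one of the 10 genes lay wholly above or wholly below the 3 wild-type replicates (9 above, 1 below), as was so for 50% of all tested genes (26.3% above and 23.8% below). These comparisons share the wild-type samples. In the triple knockout the SE of the 10 genes ran from 0.078 to 0.28, beside a median of 0.20 over all tested genes. Every gene of the 10 but *SMAD7* lay below that median. Calls and separated replicates come more easily at a smaller SE, and shares among genes of like SE were not taken.

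**Figure D2:**
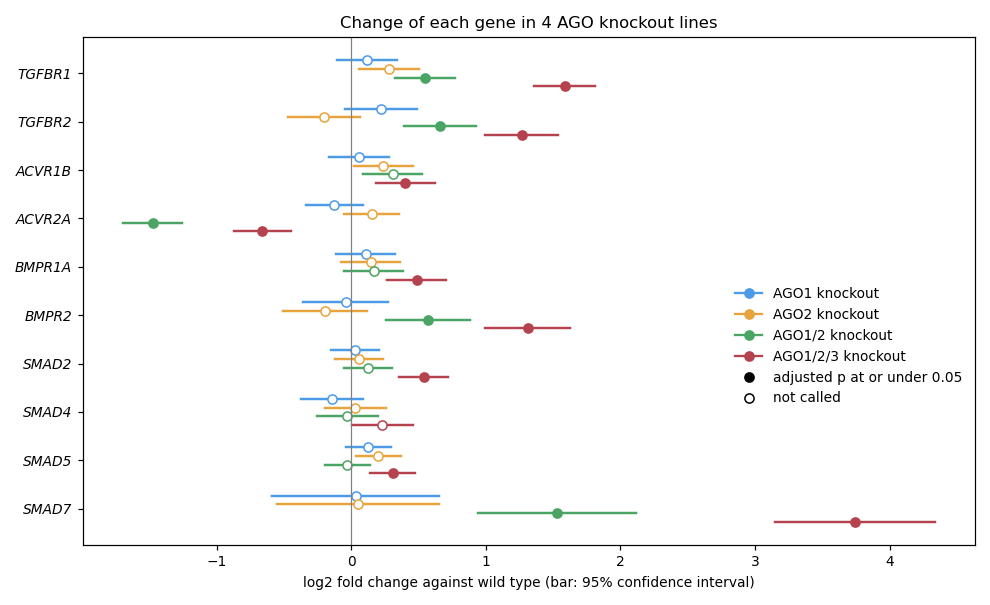
Log2 fold change against wild type (horizontal axis) of each gene (rows) in the 4 knockout lines (colours), with bars for the 95% confidence interval and filled points for adjusted p at or under 0.05. No filled point belongs to a single knockout, and the filled points of *ACVR2A* lie at -1.47 and -0.66 while all others lie above 0, up to 3.74 for *SMAD7*.

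The triple and the double knockout, whose labels differ in *AGO3*, were compared directly. By edgeR, *AGO2* RNA (0.67, adjusted p = 0.000235) and *AGO4* RNA (1.05, adjusted p = 0.00387) were also higher in the triple knockout. The paper reports that this line grew slowest. Loss of AGO3 cannot be told apart from these differences or from the line. Of the 10 genes 8 were called, all higher in the triple knockout and all but *ACVR1B* and *SMAD4*. Of all tested genes 22% were called, 11.9% higher. Beside the 5 genes described above, *SMAD2* differed by 0.41 (SE 0.08, adjusted p = 0.00231), *SMAD5* by 0.34 (SE 0.08, adjusted p = 0.00571) and *BMPR1A* by 0.32 (SE 0.10, adjusted p = 0.037). *ACVR2A* is thus among the genes that were higher, although both lines stood below wild type. The *BMPR1A* call was lost in 14 of 22 alternatives. Among them were the fits without wild-type replicate 1, *AGO1* replicates 2 or 3, *AGO1/2* replicates 1 or 2, or any replicate of the *AGO2* or *AGO1/2/3* lines, with adjusted p from 0.0535 to 0.163. The *SMAD5* call was lost with no filter on low counts (0.32, adjusted p = 0.0665).

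Against the *AGO1* knockout line, the *AGO1/2* line had 4 of the 10 genes called higher and 1 lower, where 19.5% of all tested genes were called (11.5% higher and 7.95% lower). *SMAD7* differed by 1.50 (SE 0.28, adjusted p = 0.00114), *BMPR2* by 0.61 (SE 0.15, adjusted p = 0.00792), *TGFBR2* by 0.44 (SE 0.13, adjusted p = 0.0216), *TGFBR1* by 0.43 (SE 0.10, adjusted p = 0.00787) and *ACVR2A* by -1.35 (SE 0.10, adjusted p = 3.7e-07). Without *AGO1/2* replicate 2 the calls of *TGFBR1* (adjusted p = 0.0552), *TGFBR2* (adjusted p = 0.102) and *BMPR2* (adjusted p = 0.0534) were lost. *TGFBR2* was also lost without *AGO1* replicate 1 (adjusted p = 0.0954), *AGO1* replicate 2 (adjusted p = 0.0832) or *AGO1/2* replicate 3 (adjusted p = 0.0691), and *BMPR2* without *AGO1* replicate 2 (adjusted p = 0.0502).

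Against the *AGO2* knockout line, the *AGO1/2* line had 3 genes called higher and 2 lower, where 23.9% of all tested genes were called (12.8% higher and 11.1% lower). *SMAD7* differed by 1.48 (SE 0.27, adjusted p = 0.00111), *TGFBR2* by 0.86 (SE 0.13, adjusted p = 0.000207), *BMPR2* by 0.76 (SE 0.15, adjusted p = 0.0018), *ACVR2A* by -1.62 (SE 0.10, adjusted p = 6.35e-08) and *SMAD5* by -0.23 (SE 0.08, adjusted p = 0.045). The *SMAD5* call was lost in 15 of 22 alternatives, with adjusted p up to 0.176. Scaling by total counts gave 4 higher and 1 lower, with *TGFBR1* called (0.30, adjusted p = 0.0381) and *SMAD5* not (-0.20, adjusted p = 0.0712). Over all tested genes that scaling gave 3191 higher and 2198 lower.

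Whether the joint loss of AGO1 and AGO2 differed from the sum of the single losses was tested with the interaction term of the same model, on the log2 scale. Of the 10 genes 5 were called, 3 with more RNA than the sum and 2 with less, where 19.7% of all tested genes were called (11.5% above and 8.26% below). *SMAD7* exceeded the sum by 1.45 (95% confidence interval 0.61 to 2.29, adjusted p = 0.0188), *BMPR2* by 0.81 (0.36 to 1.25, adjusted p = 0.0142) and *TGFBR2* by 0.64 (0.26 to 1.02, adjusted p = 0.0202). *ACVR2A* lay below the sum by -1.50 (-1.80 to -1.20, adjusted p = 7.15e-06) and *SMAD5* by -0.36 (-0.59 to -0.12, adjusted p = 0.0344). For *TGFBR1* the difference was 0.15 (-0.16 to 0.46, adjusted p = 0.508). *TGFBR2* and *TGFBR1* work as a pair and both rose in the double knockout. In the interaction *TGFBR2* was called and *TGFBR1* was not, and a difference between them was not tested. The *SMAD7* call was lost without *AGO1* replicate 1 (1.27, adjusted p = 0.0521) or 2 (1.23, adjusted p = 0.0578). The *TGFBR2* call was lost without *AGO1* replicate 2 (adjusted p = 0.0595) and *AGO1/2* replicates 2 (adjusted p = 0.0509) or 3 (adjusted p = 0.0523). The *SMAD5* call was lost in 9 of 22 alternatives, and scaling by total counts, which left 3 genes above the sum and 1 below it, was one of them (-0.24, adjusted p = 0.133). Over all tested genes that scaling called 3467 above the sum and 1228 below it.

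**Figure D3:**
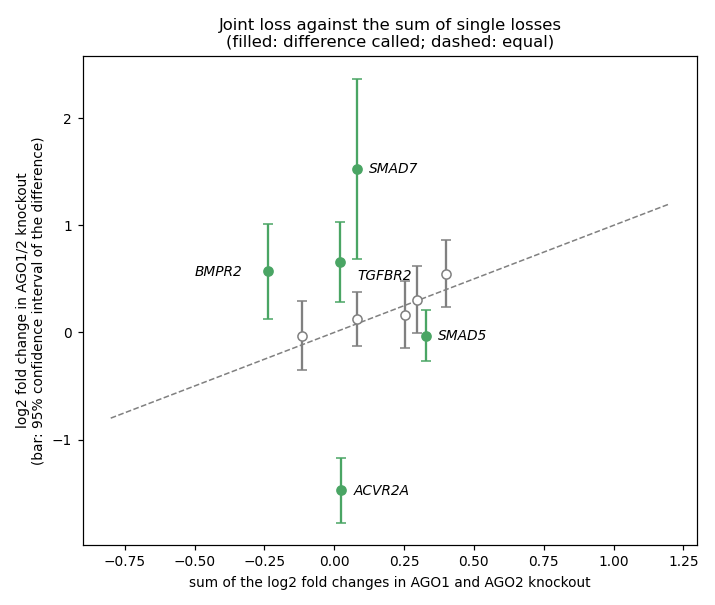
Log2 fold change in the double knockout (vertical axis) against the sum of those in both single knockouts (horizontal axis), a point for each of the 10 genes, with the 95% confidence interval of the difference between the axes as a bar and a dashed line where both are equal. *SMAD7*, *BMPR2* and *TGFBR2* lie above the line by 1.45, 0.81 and 0.64, and *ACVR2A* lies below it by 1.50.

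The rest of the pathway was taken from 8 lists of 87 ligands, receptors, antagonists, regulators and targets, of which 68 genes passed the filter. These lists were also chosen with earlier results of these data known. In *AGO1/2/3* knockout cells 34 of the 68 were called higher and 11 lower, 66.2% of them, where 40.1% of all tested genes were called, and their log2 fold changes had a median of 0.47. In the double knockout 13 were higher and 10 lower, where 16.7% of all tested genes were called, and with scaling by total counts 9 higher and 11 lower. In *AGO2* knockout cells 3 were higher and 17 lower, where 19.3% of all tested genes were called (1952 higher and 2456 lower). Genotype and Salmon mode cannot be told apart in that line. In *AGO1* knockout cells 1 was higher and 2 lower, where 8.68% of all tested genes were called (725 higher and 1257 lower). With scaling by total counts 1 was higher and 8 lower, beside 511 higher and 1985 lower of all tested genes. The counts by role below are for the triple knockout and stand beside 20.3% higher and 19.8% lower of all tested genes.

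Among ligands, *TGFB2*, a TGF-beta that needs betaglycan to bind TGFBR2 well, had 1.10, 1.21 and 0.874 CPM in wild-type cells and 6.63, 6.73 and 9.10 in *AGO1/2* knockout cells. In *AGO1/2/3* knockout cells it had 22.9, 24.6 and 29.0 CPM. Both lines lay above wild type without overlap, with log2 fold changes of 2.82 (adjusted p = 5.26e-06) and 4.59 (adjusted p = 9.51e-09). *INHBB*, which encodes the activin B subunit, rose by 2.08 and 3.89 in the same lines from 0.219 to 0.513 CPM in wild-type cells. *BMP4*, a BMP ligand, had 59.8, 23.9 and 77.2 CPM in wild-type cells and 198.7 to 257 CPM in *AGO1/2/3* knockout cells, a log2 fold change of 2.06 (adjusted p = 4.94e-05). Wild-type replicate 2 was the low one for *BMP4*. *BMP8A* was higher at low level (1.10, adjusted p = 0.000747). *BMP2*, named after its value was seen, had 3 to 11 counts a sample in wild-type cells and 0 in the triple knockout, so its fitted change of -5.81 depends on the fit and is no bound. Of the 8 tested ligands of the TGF-beta and activin branch 3 were called higher and 1 lower, and of the 9 of the BMP branch 5 higher and 3 lower.

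Betaglycan itself, the co-receptor encoded by *TGFBR3*, had 8.42 to 16.6 CPM in wild-type and 27.1 to 45.2 in *AGO1/2/3* knockout cells (log2 fold change 1.51, adjusted p = 6.84e-05). *BAMBI*, a decoy receptor without a kinase, rose by 1.23 (adjusted p = 8.3e-06), and *RGMA*, a BMP co-receptor, by 1.03 (adjusted p = 0.000264). Of 5 co-receptors and decoys tested these 3 were called higher and none lower. *ACVR2B*, the closest relative of *ACVR2A*, had 80.2, 91.1 and 92.2 CPM in wild-type cells, 99.3, 130.7 and 131.6 in the double and 239, 223 and 215 in the triple knockout. It was called higher in both lines, by 0.46 (adjusted p = 0.0286) and 1.36 (adjusted p = 1.42e-06), where *ACVR2A* was called lower. The *ACVR2B* call in the *AGO1/2* line was lost in 5 of 22 alternatives. They were scaling by total counts alone (0.37, adjusted p = 0.0601), a fit of only the 6 samples compared (0.44, adjusted p = 0.0919), and fits without wild-type replicate 1 (0.39, adjusted p = 0.112) or *AGO1/2* replicates 2 (0.38, adjusted p = 0.122) or 3 (0.39, adjusted p = 0.101).

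Of 15 regulators that act on the receptors and SMADs, all tested, 10 were called higher and 1 lower. *SMURF2*, a ubiquitin ligase that SMAD7 brings to the receptors, had 369 to 417 CPM in wild-type cells and 829 to 897 in *AGO1/2/3* knockout cells (log2 fold change 1.14, adjusted p = 2.18e-05). *NEDD4L*, another ligase for SMADs, rose by 1.39 (adjusted p = 1.96e-07), and *ZFYVE9*, the anchor that presents SMAD2 to the receptor, by 1.10 (adjusted p = 4.24e-07). *PMEPA1*, a feedback inhibitor that TGF-beta induces, had 0.721, 2.01 and 0.482 CPM in wild-type cells and 28.2, 25.7 and 20.1 in *AGO1/2/3* knockout cells, a log2 fold change of 4.53 (adjusted p = 2.94e-07), or 5.32 without wild-type replicate 2. In *AGO1/2* knockout cells *PMEPA1* had 0.759 to 1.06 CPM and was not called, and in *AGO2* knockout cells it had 0.152 to 0.202 CPM and was called lower (-2.60, adjusted p = 0.00717, and -1.80 without wild-type replicate 2). *SMAD6*, the other inhibitory SMAD, had 7.33, 2.96 and 8.89 CPM in wild-type cells and rose by 1.66 in *AGO1/2* (adjusted p = 0.000926) and 1.51 in *AGO1/2/3* knockout cells (adjusted p = 0.000565).

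Of 13 latency proteins and antagonists tested 5 were higher and 3 lower in the triple knockout. *THBS1*, thrombospondin that can activate latent TGF-beta, rose by 2.73 (adjusted p = 3.84e-05), *LTBP2* by 1.29 (adjusted p = 0.000225) and *TWSG1*, a BMP-binding protein, by 1.19 (adjusted p = 5e-07). *LTBP1*, which tethers latent TGF-beta to matrix, was lower (-1.80, adjusted p = 2.85e-05), as in the double knockout (-2.37, adjusted p = 1.55e-05). Of 10 transcriptional targets of the pathway 5 were higher and 1 lower. *CCN2* had 15.5, 5.80 and 5.07 CPM in wild-type cells and 23.9 to 39.2 in *AGO1/2/3* knockout cells (1.83, adjusted p = 0.000738), and was lower in both single knockouts (-2.24, adjusted p = 0.00299, and -1.96, adjusted p = 0.00465). Wild-type replicate 1 was the high one for *CCN2*, and without it these changes were 2.51, -1.54 and -1.29. *CDKN2B*, a cell-cycle inhibitor, had 11.1, 32.9 and 8.29 CPM in wild-type cells and 48.6 to 54.0 in *AGO1/2/3* knockout cells (1.56, adjusted p = 0.00529, and 2.38 without wild-type replicate 2). *JUNB*, an immediate early target, was lower (-2.48, adjusted p = 4.8e-06). Targets thus moved both ways, and wild-type replicates differed among themselves in several, replicate 2 standing apart for *PMEPA1*, *SMAD6* and *CDKN2B*.

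**Figure D4:**
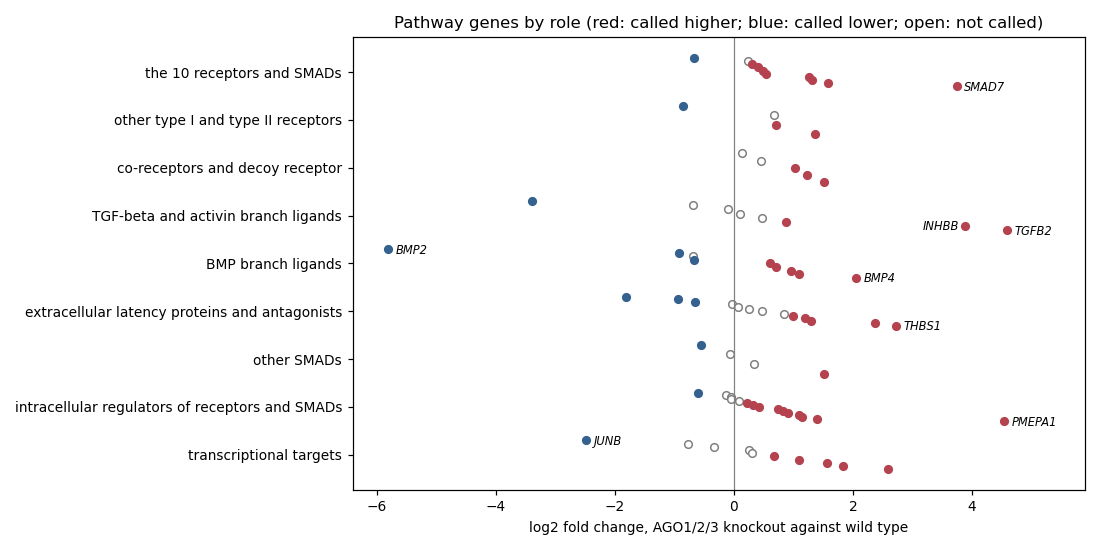
Log2 fold change of the triple knockout against wild type (horizontal axis) of the 10 genes and of the 68 other pathway genes tested, a point for each gene in rows by role, red for called higher, blue for called lower and open for not called. *TGFB2* (4.59), *PMEPA1* (4.53), *INHBB* (3.89) and *SMAD7* (3.74) lie far to the right, and the 8 receptors and SMADs called higher start at 0.31. The point at -5.81 is *BMP2*, at 0 in the triple knockout.

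The genes whose pattern over the 15 samples was most like that of *SMAD7* were *GPR55* (Pearson's r 0.982 of log2 CPM), *PRSS23* (0.979) and *ARHGAP21* (0.977), among 16083 genes at or above a mean of 1 CPM. *GPR55* encodes a G protein-coupled receptor and *PRSS23* a secreted serine protease. *PRSS23* had 5.73, 5.71, 6.47, 12.3 and 64.3 CPM as the mean of wild-type, both single (*AGO1* first), double and triple knockout cells. In the same order *GPR55* had 0.0317, 0.0660, 0.0313, 0.386 and 5.00 CPM and *ARHGAP21* 87.9, 97.3, 91.6, 134 and 215 CPM. *GPR55* thus reached a mean of 1 CPM only through the triple knockout and was near 0 in wild-type and single knockout cells. The points share their libraries and fall into 5 lines, so these values only describe the order of the genes.

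Genes near the 10 on the chromosome were also looked at. The median log2 fold change in *AGO1/2/3* knockout cells of tested genes within 5 Mb was 0.49 around *BMPR1A* (46 genes), beside 0.49 for *BMPR1A* itself. It was 0.27 around *TGFBR1*, 0.24 around *SMAD4*, 0.22 around *SMAD2* and *SMAD7*, 0.21 around *TGFBR2*, 0.10 around *BMPR2* and *ACVR2A*, 0.06 around *ACVR1B* and -0.01 around *SMAD5*. The neighbours of *BMPR1A* and *SMAD4* thus had medians about as large as the change of the gene itself, while those of *SMAD7*, *TGFBR1*, *TGFBR2* and *BMPR2* were well below it. Copy number was not measured here, and its part in these values was not tested. *BMPR1AP1*, a processed pseudogene of *BMPR1A*, had 0.672% of its level.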

How the data were processed

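RNAseq of 15 samples was used. The 8 eCLIP samples of the series were not analysed here. Per the labels and the study's methods, the authors depleted ribosomal RNA, made stranded libraries, sequenced them paired-end, aligned the reads to hg38 with STAR and quantified them with Salmon. The labels' processing notes name STAR 2.5.3a and Salmon 0.11.0, and the methods name other versions. The authors deposited the values as estimated counts per gene, which are expected counts from Salmon, not normalized for depth. By their headers, the files of the *AGO2* line came from another Salmon mode. The cells of a line were harvested as separate replicates, and p-values measure the spread between these.

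Counts were rounded and filtered with filterByExpr, scaled by TMM and fitted in a single model with a mean per line (edgeR 4.0.16, R 4.3.3). Each of 8 contrasts was tested by the quasi-likelihood test of edgeR, adjusted by Benjamini-Hochberg over 22842 genes. The biological coefficient of variation was 0.152. SE and intervals come from the test's F statistic. No 2 of the files (105 pairs) were identical. On simulated counts for *AGO1/2/3* knockout against wild type (22378 genes) the fit called 66 of 100 genes changed 2-fold and 100 of 100 changed 4-fold, with 5 false calls. The simulation changed 200 genes, far fewer than the 9166 called in the data, so its rates do not describe the real comparison.

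The 10 genes, the 8 pathway lists and the miRNAs were chosen with earlier results of these data known. Named pathway genes are those called in *AGO1/2/3* knockout cells with at least a 2-fold change and a mean of 1 CPM, at most 20 by adjusted p. For *SMAD7*, the gene with the largest change, the 3 most correlated genes are named. *ORC4* and *BMPR1AP1* are named for their position or sequence. Gene models are those of GENCODE v44, which holds 57167 of the 57875 genes. Alternatives were DESeq2's size factors, total counts only, no filter, at least 10 counts in every sample, the replicate number as a block, only the samples compared, each sample left out, DESeq2 1.42.0 and a required 2-fold change. Tables were made with Python 3.11.15, numpy 2.4.6 and pandas 2.3.3.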

Additional observations from a re-analysis of the deposited data

Results flagged for a closer look

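For 5 of the 10 genes the change in *AGO1/2* knockout cells differed from the sum of the changes in *AGO1* and in *AGO2* knockout cells, by edgeR's quasi-likelihood test of the interaction term. The difference on the log2 scale was 1.45 for *SMAD7*, 0.81 for *BMPR2*, 0.64 for *TGFBR2*, -0.36 for *SMAD5* and -1.50 for *ACVR2A*. In *SMAD7*, *BMPR2* and *TGFBR2* the single knockout lines overlapped wild type in every case and the double knockout lay above it. The term rests on single lines, and the *AGO2* line was quantified in another mode, so its part in these differences cannot be told apart.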

How the results depend on the processing

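Of 560 tests of the 10 genes under alternatives that kept all samples of the lines compared, 523 kept their direction and their side of the threshold, and of 1200 with a sample left out 1125 did. The sign changed in 16 and 29 of them, and 0 of these values were called. With scaling by total counts alone *ACVR1B*, *SMAD2* and *SMAD7* turned to -0.031, -0.065 and -0.062 in *AGO1* knockout cells, *SMAD2*, *SMAD4* and *SMAD7* to -0.065, -0.090 and -0.073 in *AGO2* knockout cells, and the interaction of *BMPR1A* to 0.031. That scaling shifted all genes, with medians of -0.14 in *AGO2* and -0.15 in triple knockout cells. *SMAD4* turned to -0.0082 in *AGO2* knockout cells with at least 10 counts in every sample. *BMPR1A* between the double and the *AGO2* knockout turned to -0.0072 with DESeq2's size factors, -0.030 with no filter and -0.014 with DESeq2's Wald test. The *ACVR1B* interaction turned to -0.027, -0.058 and -0.029 in the same alternatives and to -0.010 in a fit of the samples compared, and that of *SMAD2* to -0.026 with no filter. With a sample left out, values ran from -0.033 to 0.14 for *ACVR1B*, -0.17 to 0.041 for *BMPR2* and -0.40 (without *AGO1* replicate 3) to 0.23 for *SMAD7* in *AGO1* knockout cells. They ran from -0.048 to 0.094 for *SMAD4* and -0.061 to 0.10 for *SMAD7* in *AGO2*, and from -0.10 to 0.043 for *SMAD4* in double knockout cells. Between the double and a single knockout they ran from -0.064 to 0.096 for *BMPR1A* against *AGO1*, and against *AGO2* from -0.11 to 0.085 for *BMPR1A* and -0.15 to 0.012 for *SMAD4*. In the interaction they ran from -0.067 to 0.11 for *ACVR1B*, -0.23 to 0.010 for *BMPR1A*, -0.042 to 0.10 for *SMAD2* and -0.016 to 0.15 for *SMAD4*. A required 2-fold change left 2 of the 10 genes in the *AGO1/2* line, 4 in the *AGO1/2/3* line and 2 in each comparison between knockout lines and in the interaction, and 10, 13 and 25 other pathway genes in *AGO2*, double and triple knockout cells, since fewer genes can pass. DESeq2's Wald test called 2 of the 10 genes in *AGO2* knockout cells, beside 4913 of all 22488 genes. Among other pathway genes in *AGO1* knockout cells, 3 calls became 9 with total counts, 6 with no filter and 8 with DESeq2's Wald test. Over all genes 1982 calls became 2496, 2083 and 2244 in the same alternatives. A fit of only the samples compared called 11 pathway genes in *AGO2* and 14 in *AGO1/2* knockout cells. Over all genes that fit called 1868 of 21757 and 2116 of 21180, where the main fit called 4408 and 3820 of 22842. The cause was not tested. Leaving out each sample gave 0 to 0 called of the 10 genes in *AGO1*, 0 to 1 in *AGO2*, 4 to 6 in double and 9 to 10 in triple knockout cells, 7 to 8 between triple and double, 2 to 5 between double and *AGO1*, 4 to 5 between double and *AGO2* and 3 to 5 in the interaction. For the other pathway genes it gave 2 to 8, 13 to 22, 16 to 25 and 38 to 46 in *AGO1*, *AGO2*, double and triple knockout cells. Alternatives for the named pathway genes were added after the data were seen; all calls in *AGO1/2/3* knockout cells held, and *BAMBI* in *AGO2* knockout cells was lost most often (DESeq2's Wald test, adjusted p = 0.0575).

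On average the replicate numbers did not pair the samples. Samples with the same number in different lines had deviations that correlated at -0.0114 on average (range -0.394 to 0.486 over 30 pairs), and 3 of 15 samples correlated best with their own number. Samples with different numbers averaged 0.00563. Of the 30 pairs 8 were above 0.1, and whether some samples shared a batch was not tested. With the replicate number as a block, 5 other pathway genes were called in *AGO1* knockout cells in place of 3, and of the 10 genes *SMAD5* was lost between the double and the *AGO2* knockout (adjusted p = 0.0603), leaving 4. With that block 1781 of all 22842 tested genes were called in *AGO1* knockout cells, in place of 1982.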
